A study of Mus musculus with 14 samples.

Results

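The replication-dependent histone genes of newborn mouse paws are described here as the 70 genes, of 56691 gene IDs in the count table, whose symbol in the GENCODE M21 annotation begins with Hist1h, Hist2h, Hist3h or Hist4h. By type they were 6 genes of the linker histone H1, 20 of H2a, 19 of H2b, 12 of H3 and 13 of H4, and 3 of the 70 were annotated as pseudogenes. Of these genes 56 lay on chromosome 13, 10 on chromosome 3, 3 on chromosome 11 and 1 on chromosome 6. Total RNA of whole paws from 14 mice was depleted of ribosomal RNA and sequenced, and the deposited table holds raw read counts per gene. The comparisons address how paws that lack Krt9, the keratin of palm and sole skin, differ from wild-type paws over the first days of life. The 4 groups, each with male and female mice per the labels, were paws labelled Krt9-/- on postnatal day 3 (P3 Krt9 null, n = 3), wild-type paws of that day (P3 WT, n = 5), paws labelled Krt9-/- on postnatal day 0 (P0 Krt9 null, n = 2) and wild-type paws of that day (P0 WT, n = 4). The labels give neither a strain nor a treatment, nor which exons the Krt9 allele lacks, and they name no Cre driver. Each sample is labelled with a sex and a litter number. Litter numbers differ within a group apart from 2 males of P3 WT, and whether paws were pooled is not given, so p-values measure the spread between these samples.

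Histone genes of this class are transcribed mainly in S phase, when newly made DNA is packed into nucleosomes of H2A, H2B, H3 and H4 with H1 bound to the linker between them. Their mRNAs typically carry no poly(A) tail and end just after a short hairpin, the stem-loop, to which the stem-loop binding protein SLBP binds. Some of these genes, H1.2 and several H2B genes among them, also give longer polyadenylated mRNAs in cells that have left the cell cycle.

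The hairpin itself was read from the annotated transcripts of GENCODE M21 (GRCm38), since it marks where the short form of each mRNA ends. A match was taken as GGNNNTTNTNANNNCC on the transcript strand with a fully paired stem (G-U pairs allowed), at its last occurrence in a transcript. Such a match was found in 46 of the 70 members. In the longest transcript of each of the 21951 protein-coding genes, 107 (0.487%) held one, 45 of them members, since Hist1h2bp has its match in a shorter transcript. The sequences below show 1 hairpin each of the members the results turn on, with 5 bases on either side and the 4 loop bases in capitals, 5′ to 3′.
Hist1h1c: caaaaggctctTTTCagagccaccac
Hist3h2a: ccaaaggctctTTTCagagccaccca
Hist3h2ba: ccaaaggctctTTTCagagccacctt
Hist2h3c2: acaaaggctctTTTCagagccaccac
Hist1h3c: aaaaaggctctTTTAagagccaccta
Hist1h4h: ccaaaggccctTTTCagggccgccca
Hist1h4i: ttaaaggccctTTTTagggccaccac

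The stem set H4 apart from the other types. A core of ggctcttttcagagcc was shared by 26 members of H1, H2a, H2b and H3, and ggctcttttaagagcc by 6 of H1, H2b and H3. None of the 12 H4 members with a match had either core: 7 of them had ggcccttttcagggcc, and Hist1h4i and Hist2h4 had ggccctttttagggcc. No match says only that these letters are not in the annotated transcript. Members were placed in 3 classes by this annotation. In 23 the transcript ran at least 100 bases past the stem-loop, in 23 it ended between 3 and 74 bases after it, and 24 had no match. The longest extension was 4884 bases, in Hist1h1d, and Hist1h1c, Hist3h2a and Hist1h4i ran on for 840, 1643 and 330 bases. A poly(A) signal AATAAA was sought in the last 60 bases of any annotated transcript of a member. It was present for 11 of the 23 extended members and for 1 of the 23 that ended at the stem-loop. That 1 was Hist1h2bp, which has 2 transcripts, so the signal need not lie in the one with the stem-loop. The share over all protein-coding genes, read from the longest transcript of each alone, was 57.0%.

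Each library held between 28947715 and 41004173 counts. Levels are given in CPM, a library's count scaled to its total with edgeR's TMM factors. Krt9 counted 25.2, 7.74 and 11.5 CPM in P3 Krt9 null paws, all below the 32.9 to 83.0 CPM of P3 WT paws, whereas the 6.08 and 5.32 CPM of P0 Krt9 null paws lay within the 2.09 to 7.61 CPM of P0 WT paws. The Krt9 count thus did not separate the genotypes on P0, and genotype is given as labelled throughout. P0 WT replicate 4 is labelled female, but Xist stood at 0.181 CPM there, and Ddx3y, a gene of the Y chromosome, at 0.155 CPM. The deposited columns form 2 alphabetical runs, called column block A (8 libraries) and B (6 libraries) here, which cut across all 4 groups. Adding the block to the model called 5017 of 21619 genes (23.2%) for the block itself. Markers of many cell types were present, as in a whole paw: keratinocyte markers summed to between 16205 and 48245 CPM and fibroblast markers to between 25339 and 79862 CPM per library.

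The histone genes were a small part of this RNA. All 70 together held between 3210 and 8435 counts per library, or 0.0091% to 0.0231% of the counts. In all, 9 members had 0 counts in every library, which over 474535866 counts allows a level of up to 0.00632 CPM each (3 counts). These were Hist1h2aa, Hist1h2ap, Hist2h2aa1, Hist2h2aa2, Hist1h2br, Hist2h2bb, Hist2h3b, Hist2h3c1 and Hist1h4b. Among them were all 5 members without a single 100-base stretch of their own among the annotated transcripts, namely Hist2h2aa1, Hist2h2aa2, Hist2h2bb, Hist2h3b and Hist2h3c1. The sources used here do not say how reads that match several near-identical genes were counted, so a count of 0 in such a copy does not show that it was silent.

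Of the 61 members with counts, 24 had counts in all 14 libraries and 8 averaged at least 1 CPM. Genes known from the testis were at the low end. Hist1h2aa, the testis H2A, had 0 counts, Hist1h2ba, the testis H2B, had 1 count in all and Hist1h1t, the testis H1, had 15.

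Levels were divided by the length of annotated exon, which adjusts for length but takes long annotated ends in full. Hist1h1d, with 7425 bases of exon, was rank 8 by mean CPM and rank 45 on this scale. Per kilobase of annotated exon, the linker histone gene Hist1h1c (H1.2) stood at the top with a mean of 52.5 CPM per kb over the 14 libraries. The H2B gene Hist1h2bc followed with 23.9, Hist1h4i with 6.26, the H2B gene Hist3h2ba with 6.08, Hist2h2be with 2.77 and the H2A gene Hist3h2a with 2.08 CPM per kb. No other member but Hist1h4h (1.33) and Hist1h2bg (1.14) exceeded 1 CPM per kb, and the median over all 70 was 0.188. A single gene carried most of its type in 3 of the 5 types: Hist1h1c held 98.4% of the H1 level per kb, Hist1h2bc 65.3% of H2b and Hist1h4i 62.3% of H4. For H2a and H3 the level was spread, with 34.5% in Hist3h2a and 21.1% in Hist1h3c.

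**Figure D1:**
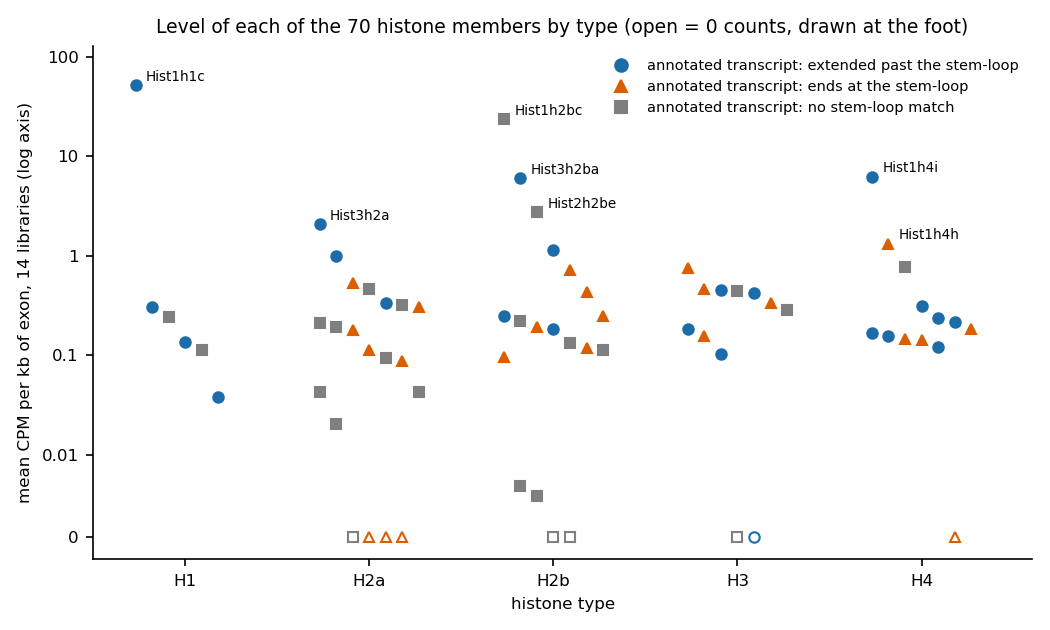
Mean level of each of the 70 members over the 14 libraries, in CPM per kilobase of exon on a log axis, by histone type; the symbol gives the class of the annotated transcript, and open symbols at the foot are the 9 members with 0 counts. Hist1h1c (52.5) and Hist1h2bc (23.9) stand above all others, and no H3 gene reaches 1.

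Summed per kb, H1 made up 48.7% of the level of all members, H2b 33.4%, H4 9.17%, H2a 5.49% and H3 3.29%. The core nucleosome takes up its 4 histones in equal number, so the types were not represented in that proportion among the counted RNAs. By transcript class, the 23 members whose annotated transcript extends past the stem-loop held 66.3% of the level per kb, with 72.2% of that in Hist1h1c alone. The 23 that end at the stem-loop held 5.98%, and the highest of them was Hist1h4h. The remaining 27.7% fell to members with no match, with 78.7% of that in Hist1h2bc. The median member stood at 0.246 CPM per kb in the extended class. The median was 0.181 in the class that ends at the stem-loop and 0.123 in that with no match. No difference between the classes was tested. The classes also differed in the share of a member's sequence stretches that are its own among the annotated transcripts. The median share was 84.9% in the extended class, 47.6% in that ending at the stem-loop and 36.8% with no match. The part of shared sequence in the levels of the classes was not tested.

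Low counts were not limited to genes with near-identical copies. Hist1h1b (H1.5) and Hist1h1a (H1.1), linker histones of dividing cells with annotated transcripts of 743 and 741 bases, share no 100-base stretch with another transcript and had 87 and 39 counts over all 14 libraries. Hist1h1b ran from 0 to 17 counts per library. Other RNAs without a poly(A) tail were also scarce, although the labels give depletion of ribosomal RNA. Of 15 gene IDs matched from a list of such RNAs, 10 had 0 counts, including Rmrp, Rpph1, Rny1 and Rny3, and the 15 together summed to between 0 and 0.469 CPM per library. Annotated small nucleolar RNAs summed to between 20.1 and 37.6 CPM and spliceosomal small nuclear RNAs to between 6.07 and 10.2 CPM. The sums of these RNAs without a tail are scaled to a library's total counts alone, without the TMM factors. Whether these levels stand for those in the paw was not tested.

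Genes for the histone variants that are also made outside S phase ranged from 8.32 to 258 CPM per kb. Of the 11 variants 4 stood above Hist1h1c: H3f3b and H3f3a, both coding for H3.3, at 258 and 174 CPM per kb, the linker variant H1f0 at 189 and the H2A.Z gene H2afz at 125. The other 7 stood below Hist1h1c, and H1fx (20.1), H2afy (14.8), H2afy2 (13.9) and the centromeric H3 gene Cenpa (8.32) also stood below Hist1h2bc. All 11 stood above the other 68 members.

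Across libraries the members summed to between 92.1 CPM in P0 Krt9 null replicate 1 and 235.2 CPM in P3 Krt9 null replicate 1. The 6 highest members held between 88.0% and 93.1% of that sum in every library. H1 summed to 169.7, 53.0 and 88.3 CPM in P3 Krt9 null paws and to 133.1, 59.6, 50.3, 64.6 and 84.7 CPM in P3 WT paws. On P0, H1 summed to 46.3 and 70.8 CPM in Krt9 null paws and to 89.5, 101.6, 93.5 and 67.9 CPM in WT paws. The H1 sums of all 4 groups thus overlapped, and the spread within the P3 groups was the widest of any type.

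H2a was the type with the clearest difference by day. It summed to 11.6, 7.13 and 7.69 CPM in P3 Krt9 null paws and to 5.63 and 6.15 CPM in P0 Krt9 null paws. In WT paws it summed to 9.55, 8.37, 6.69, 7.08 and 9.73 CPM on P3 and to 4.89, 4.51, 5.75 and 5.17 CPM on P0. All P3 sums of H2a lay above all P0 sums in both genotypes, largely through Hist3h2a, and the genotypes overlapped on P3 and on P0. Without Hist3h2a the H2a sums of the days overlapped in both genotypes. The H2b sums averaged 43.4 ± 4.70 CPM in P3 Krt9 null (SD, n = 3), 43.0 ± 5.06 in P3 WT (n = 5), 44.6 ± 15.9 in P0 Krt9 null (n = 2) and 37.8 ± 4.40 CPM in P0 WT paws (n = 4), so no pair of these groups separated. H4 sums averaged 8.26 ± 0.844, 7.56 ± 1.17, 6.65 ± 2.35 and 5.62 ± 1.01 CPM in the same order of groups. H3 sums averaged 2.46 ± 0.395, 2.85 ± 0.249, 2.49 ± 0.890 and 2.36 ± 0.334 CPM. In WT paws the lowest H3 sum of P3, 2.63 CPM, lay just above the highest of P0, 2.54 CPM, while the H4 sums of the days overlapped. Without Hist2h3c2 the H3 sums of the days overlapped in WT paws as well. No test was run on these sums.

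**Figure D2:**
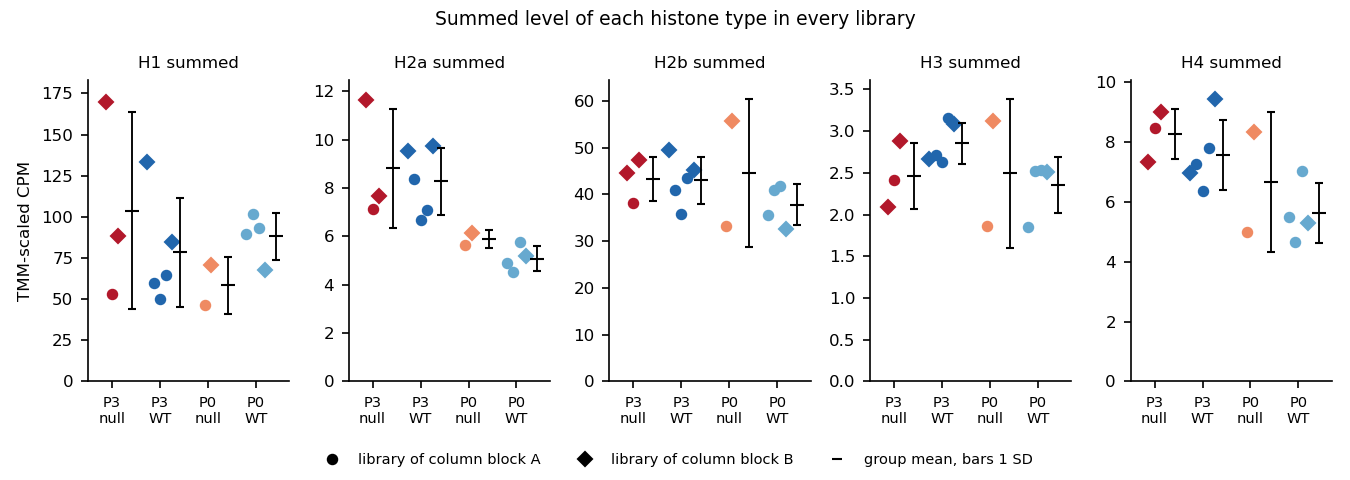
Summed TMM-scaled CPM of the members of each histone type in each of the 14 libraries, by group; circles and diamonds are libraries of column block A and B, and the line with bars is the group mean with 1 SD. H2a separates P3 (6.69 to 11.6) from P0 (4.51 to 6.15), largely through Hist3h2a. The H1 sums of P3 are widest, with both libraries of block B above those of block A in each P3 group.

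The comparison of P3 WT with P0 WT paws asked how histone genes change over the first days in normal paws. Only 33 members passed the filter on low counts and could be tested, 4 of H1, 6 of H2a, 9 of H2b, 5 of H3 and 9 of H4, and the other 37 were too low. A member that passed only through the group where it was high had to differ, so the counts below describe the tested members alone. Hist2h3c2, Hist4h4, Hist1h2ag and Hist1h2bj passed the filter through P3 libraries and would not have passed through those of P0. Of the 33, 3 rose at an adjusted p under 0.05 in edgeR's quasi-likelihood test with Benjamini-Hochberg adjustment over all 21619 genes, namely Hist3h2a, Hist2h3c2 and Hist2h2be, and none fell. That is 9.09% of the tested members, against 8.49% of all genes called higher and 8.07% called lower (16.6% in either direction), so members were called higher about as often as genes in general. DESeq2 called 5 members, Hist1h2ag and Hist4h4 besides these, or 15.2% of the 33, against 21.7% of all genes. The median log2 fold change was 0.34 over the 33 members and -0.01 over all genes, and 24 of the members had a positive one.

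Hist3h2a, an H2A gene of chromosome 11, counted 6.99, 4.84, 4.16, 4.75 and 7.51 CPM in P3 WT paws, against 3.13, 1.65, 2.39 and 2.90 CPM in P0 WT paws. All 5 libraries of P3 lay above all 4 of P0. The level averaged 5.65 ± 1.49 CPM on P3 and 2.52 ± 0.655 CPM on P0 (SD), a 2.22-fold rise (log2 fold change 1.15 ± 0.25 SE, edgeR adjusted p = 0.00814). In block A alone, with 3 libraries of each day, the log2 change was 0.99 (edgeR adjusted p = 0.0137). Here and for the genes below, the block A fit has 3 residual degrees of freedom. Its P3 WT libraries include the males that share a litter number. In block B alone the log2 change was 1.24, a value with no test. P0 WT has 1 library there, replicate 4, whose counts do not match its sex label. The call held in each of 14 fits that left out 1 library. With the litter number as replicate block, which pairs few mice, it was lost (edgeR adjusted p = 0.346). The exons of Hist3h2a overlap those of Trim17 and a predicted gene in the annotation. Since the strand setting of the counting is not given, reads of these genes may not be fully separated. Trim17 itself counted 0.303 ± 0.0780 CPM in P3 WT and 0.307 ± 0.243 CPM in P0 WT paws.

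The H2B gene of the same chromosome, Hist3h2ba, gave a different picture. It counted 4.13, 3.90, 2.60, 3.02 and 3.58 CPM in P3 WT paws and 3.40, 3.50, 5.00 and 3.93 CPM in P0 WT paws. The days overlapped, with a log2 fold change of -0.20 ± 0.23 SE (edgeR adjusted p = 0.608). Whether the changes of these H2A and H2B genes differ was not tested.

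Hist2h3c2, an H3.2 gene of chromosome 3, counted 0.688, 0.722, 0.73, 0.797 and 0.649 CPM in P3 WT paws, against 0.183, 0.0752, 0.250 and 0.259 CPM in P0 WT paws. The days did not overlap, and the rise was 3.63-fold (log2 fold change 1.86 ± 0.51 SE, edgeR adjusted p = 0.0241). These levels stand for 21 to 30 counts per library on P3 and 2 to 10 on P0. No P0 library of either genotype reached the level of the filter, so Hist2h3c2 was tested only because of P3, where it was high. The filter thus partly fixed the direction of this difference, and the call is no separate support for a rise. Only 38.4% of its 100-base stretches are its own, so reads of near-identical H3 genes may be split between them. In block A alone the log2 change was 2.19 (edgeR adjusted p = 0.0186), and in block B alone, with 1 P0 WT library and no test, 0.97. Without P0 WT replicate 1, 2 or 3 or P3 WT replicate 4, the adjusted p in edgeR was 0.0705, 0.0681, 0.057 and 0.0532, so the call rests on each of these. The call was also lost with the litter number as replicate block.

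Hist2h2be, an H2B variant best known from olfactory neurons, counted 7.78, 7.34, 7.39, 7.71 and 10.6 CPM in P3 WT paws, against 4.65, 6.73, 5.72 and 6.36 CPM in P0 WT paws. The days did not overlap here either, although the gap was narrow. The rise was 1.43-fold (log2 fold change 0.51 ± 0.15 SE, edgeR adjusted p = 0.0334), the smallest of the 3. The call was lost in 7 of 14 fits that left out 1 library, with an edgeR adjusted p of 0.0956, 0.0572 and 0.0565 without P0 WT replicate 1, 2 or 3, and of 0.0579, 0.0593, 0.0539 and 0.0982 without P3 WT replicate 1, 2, 3 or 5. It was also lost without the sex term (edgeR adjusted p = 0.0831), without the filter on low counts (0.117), with the 2 litter-mate P3 WT males summed (0.0528), and with the block as a term without P0 WT replicate 4 (0.0516). The highest value, an edgeR adjusted p of 0.463, came with the litter number as replicate block, which pairs few mice. In block A alone the log2 change was 0.44 (edgeR adjusted p = 0.0925), and in block B alone, with no test, 0.78.

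Among the other tested members, Hist4h4 and Hist1h2bj, an H4 and an H2B gene, also had P3 WT libraries wholly above P0 WT. Hist4h4 counted 0.743, 0.505, 0.539, 0.83 and 0.803 CPM in P3 WT paws, against 0.261, 0, 0.322 and 0.362 CPM in P0 WT paws. Neither passed the test (edgeR adjusted p = 0.12 and 0.133). With the 3 called genes, 5 of the 33 members (15.2%) did not overlap between the days, against 16.7% of all genes, so the members did so about as often as genes in general. All 9 tested H4 genes had a positive log2 fold change, between 0.24 and 1.48, and none was called. For the 2 most counted members the test was not passed: Hist1h1c had a log2 change of -0.21 ± 0.34 SE (edgeR adjusted p = 0.728) and Hist1h2bc 0.14 ± 0.18 SE (adjusted p = 0.649). Within H1, Hist1h1d (H1.3) had 0.99 ± 0.58 and Hist1h1e (H1.4) -0.51 ± 0.56 (SE), neither called. Within H2a, Hist1h2ac had 0.08 ± 0.46 and Hist1h2ae -0.57 ± 0.59, and within H3, Hist1h3d had 0.48 ± 0.68 and Hist1h3c -0.38 ± 0.58, also not called.

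**Figure D3:**
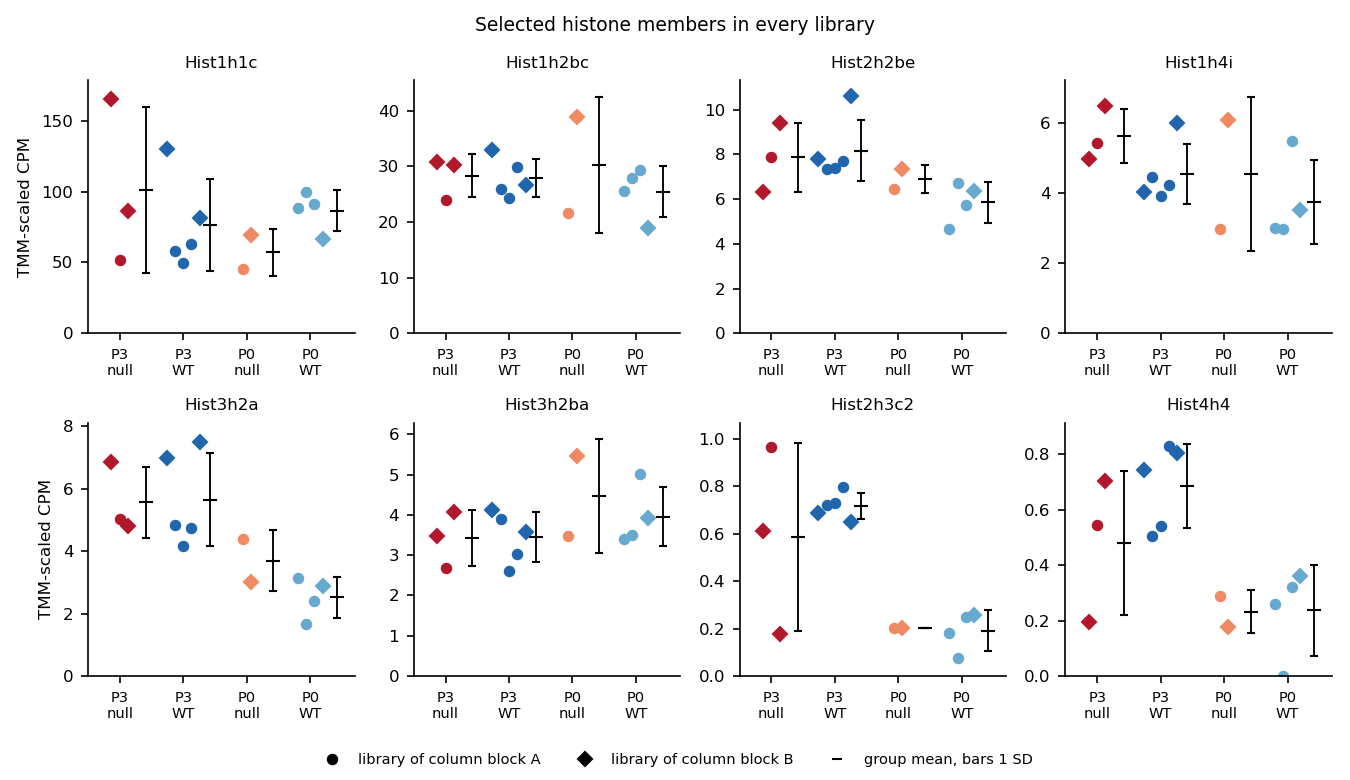
TMM-scaled CPM of 8 members in each of the 14 libraries, by group; circles and diamonds are libraries of column block A and B, and the line with bars is the group mean with 1 SD. Hist3h2a, Hist2h3c2, Hist2h2be and Hist4h4 separate P3 WT from P0 WT, while Hist1h1c (45.6 to 165.6 CPM) and Hist1h2bc (19.0 to 39.0 CPM) overlap in all groups.

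Genes that work beside these histones in S phase were read in the same comparison. Of 39 DNA replication genes, 33 rose and none fell, with a median log2 fold change of 0.76. Tyms, which makes thymidylate for DNA, rose 2.21-fold to 40.2 ± 4.66 CPM in P3 WT paws, against 18.2 ± 3.21 CPM in P0 WT paws (edgeR adjusted p = 0.000377). The S-phase transcription factor E2f2 rose 3.07-fold (edgeR adjusted p = 0.000565) and Cdc45, a part of the replicative helicase, 1.90-fold (edgeR adjusted p = 0.000567). Of 24 genes of mitosis 17 rose, with a median of 0.43, among them Bub1b (1.70-fold), Top2a (1.63-fold) and Mki67 (1.75-fold).

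The machinery of histone mRNA itself was read as well. Of 25 genes for histone mRNA processing and transcription, 6 rose and none fell, with a median log2 fold change of 0.23. Slbp, whose protein binds the stem-loops printed above, rose 1.68-fold to 55.3 ± 4.66 CPM in P3 WT paws, against 33.3 ± 4.85 CPM in P0 WT paws (edgeR adjusted p = 0.000939). Ccne2, a cyclin of the kinase that drives histone transcription, rose 1.94-fold and the cap-binding gene Ncbp2 1.72-fold. Of 16 histone chaperones 3 rose: Asf1b (2.22-fold), Nasp (1.49-fold) and Chaf1b (1.45-fold). Of the 11 replication-independent variants 1 rose, H2afz (1.53-fold). Of 12 genes of cell cycle exit 5 fell, including the inhibitors Cdkn1a (log2 fold change -0.75) and Cdkn1c (-0.59), and 2 rose, including the inhibitor Cdkn2c (0.55). No difference between these lists and the histone members was tested, and the members' standard errors had a median of 0.62 on the log2 scale.

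Markers of other cell types changed with the day as well. In P3 WT against P0 WT paws 4 of 6 skeletal muscle markers fell (summed 1673 to 3096 CPM against 3863 to 11605 CPM), 4 of 6 white blood cell markers rose (320.0 to 498.9 CPM against 160.0 to 272.0 CPM), 2 of 7 keratinocyte markers fell (19929 to 27853 CPM against 20836 to 45729 CPM) and 2 of 7 erythroid precursor markers rose (525.98 to 2577 CPM against 536 to 3680 CPM). Of smaller lists, 2 of 3 adipocyte markers and 1 of 3 Schwann cell markers rose, 1 of 3 endothelial, 1 of 4 osteoblast and 1 of 6 fibroblast markers fell, and 0 of 5 cartilage markers were called. Their part in the histone values was not tested, and in a whole paw fewer cells of a type and less RNA per cell cannot be told apart.

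**Figure D4:**
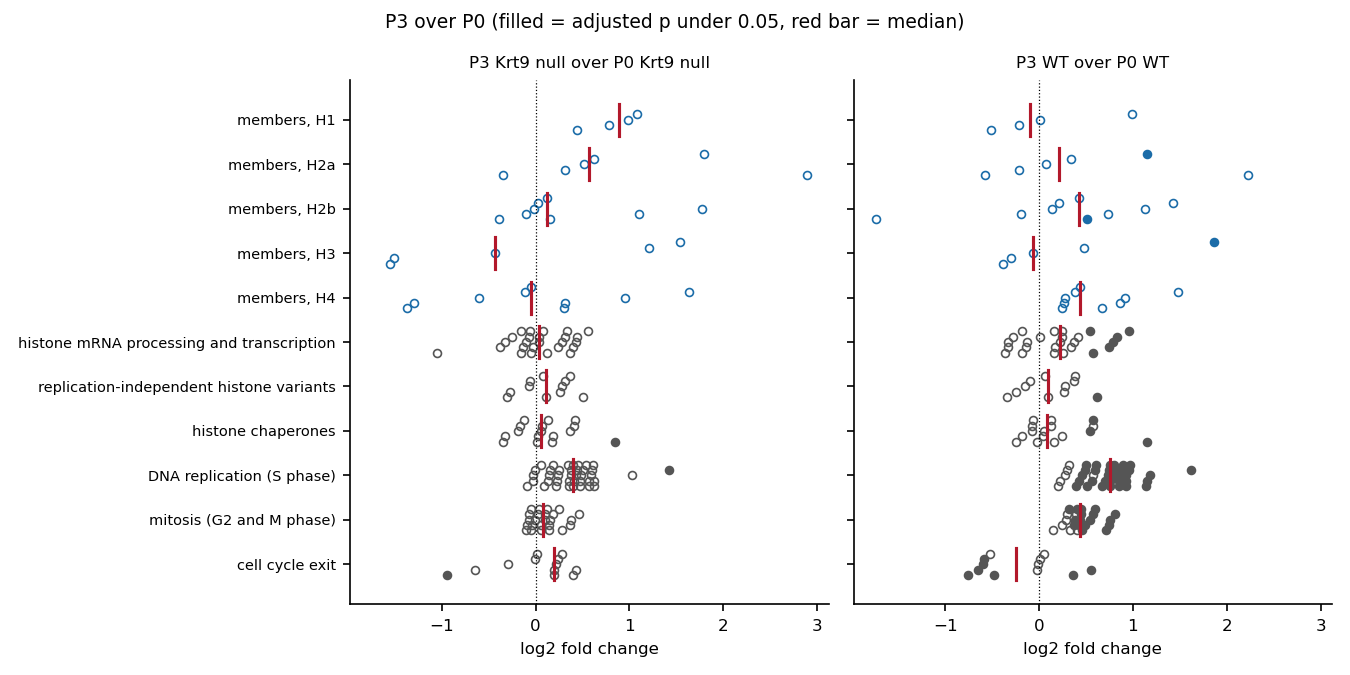
Fitted log2 fold changes of P3 over P0 in Krt9 null paws (left) and WT paws (right), 1 point per tested gene; the upper 5 rows are the histone members by type and the lower 6 rows are lists of related genes, filled points have an adjusted p under 0.05 and red bars are medians. In WT paws 3 of 33 histone members and 33 of 39 DNA replication genes are filled, with no test between the lists; Hist1h2bf is not drawn on the left because both P0 Krt9 null libraries had 0 counts.

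In Krt9 null paws, P3 against P0, no member passed the test, and 0.768% of all genes did. Of the 33 members 3 (9.09%) had an unadjusted p under 0.05 in edgeR, against 15.9% of all genes, and DESeq2 and limma voom called none. The median log2 fold change was 0.32 over the members and -0.01 over all genes. These groups hold 3 and 2 libraries, and the standard errors were larger (median 0.86 over the members on the log2 scale, against 0.62 for the days in WT).

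Hist3h2a counted 6.86, 5.02 and 4.81 CPM in P3 Krt9 null paws, against 4.39 and 3.00 CPM in P0 Krt9 null paws. The libraries of the days did not overlap, and the log2 fold change was 0.62 ± 0.34 SE (edgeR adjusted p = 0.396). Of the 33 members 5 (15.2%) did not overlap between the days, the others being the rare Hist1h2ab, Hist1h2ag, Hist1h2bb and Hist1h4d. None of these rare members would have passed the filter on low counts through P0 libraries. Of all genes 25.6% did not overlap, a larger share. Hist2h3c2 counted 0.613, 0.967 and 0.176 CPM on P3, against 0.201 and 0.202 CPM on P0, with 1 of the 3 P3 libraries below both of P0 (log2 fold change 1.54 ± 0.70 SE, edgeR adjusted p = 0.295). Hist2h2be counted 6.30, 7.89 and 9.41 CPM on P3, against 6.46 and 7.36 CPM on P0, which overlapped. The H2B gene Hist1h2bf had 13, 0 and 3 counts in the P3 libraries and 0 counts in both P0 libraries, so no fold is given.

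E2f2 rose in Krt9 null paws too (2.67-fold, edgeR adjusted p = 0.0367), the 1 called gene of the 39 DNA replication genes, whose median was 0.40. The chaperone Asf1b rose 1.80-fold (edgeR adjusted p = 0.0494), 1 of the 12 genes of cell cycle exit fell, and none of the 25 genes of histone mRNA processing was called. That fewer genes were called here than in WT does not show a smaller change: the difference between the genotypes was tested as the interaction below.

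The genotypes were compared on P3, where Krt9 null paws had less Krt9. No member was called, and 0.00463% of all genes were, that is 1 of 21619. In edgeR 1 member (3.03%) had an unadjusted p under 0.05, against 6.67% of all genes, and DESeq2 and limma voom called none. The median log2 fold change was -0.02 over the members and -0.01 over all genes, with 16 members positive and 17 negative.

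Hist1h1c counted 165.6, 51.7 and 86.1 CPM in P3 Krt9 null paws, against 130.2, 58.1, 49.4, 63.0 and 81.0 CPM in P3 WT paws. Each group ran from about 50 CPM to over 130 CPM, and the log2 fold change was 0.43 ± 0.36 SE (edgeR adjusted p = 0.928). Without P3 Krt9 null replicate 1 it was -0.17. Hist1h2bc counted 30.8, 23.9 and 30.2 CPM in Krt9 null paws, against 33.0, 26.0, 24.3, 29.8 and 26.6 CPM in WT paws, a log2 change of 0.01 ± 0.20 SE. Hist1h4i counted 4.99, 5.44 and 6.49 CPM in Krt9 null paws, against 4.04, 4.48, 3.93, 4.25 and 6.02 CPM in WT paws (0.26 ± 0.27 SE). Hist3h2a (0.01 ± 0.27 SE), Hist2h2be (-0.15 ± 0.17) and Hist3h2ba (-0.02 ± 0.25) lay near 0 as well. For these 6 genes all standard errors were at most 0.36, while the median over the 33 members was 0.66.

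The members with the smallest p were rare RNAs. The H2B gene Hist1h2bb had 4, 4 and 2 counts in P3 Krt9 null libraries, against 20, 13, 2, 15 and 14 counts in P3 WT libraries (log2 fold change -1.82 ± 0.83 SE, edgeR adjusted p = 0.745). The H4 gene Hist2h4 had 1, 4 and 4 counts in Krt9 null libraries, against 16, 10, 9, 5 and 8 in WT libraries (-1.60 ± 0.78 SE, edgeR adjusted p = 0.756). The H4 gene Hist1h4k had 1, 6 and 3 counts in Krt9 null libraries, against 19, 18, 6, 11 and 15 in WT libraries (-1.78 ± 0.87 SE, edgeR adjusted p = 0.756). In CPM the genotypes overlapped for Hist1h2bb and did not for Hist2h4 and Hist1h4k, and none of the 3 passed the test. These are 2 of the 33 members (6.06%), against 2.56% of all genes without overlap on P3. Beside them, none of the 39 DNA replication genes was called on P3 (median log2 fold change -0.12), and 0 of 25 genes of histone mRNA processing (-0.02).

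On P0 the picture by genotype was alike. No member was called, against 0.00463% of all genes, and 2 members (6.06%) had an unadjusted p under 0.05 in edgeR, Hist1h2bb and Hist1h2bf, against 5.96% of all genes, while DESeq2 and limma voom called none. The median log2 fold change was 0.18 over the members and -0.0039 over all genes, with 19 members positive and 14 negative. Hist1h2bb had 2 and 0 counts in P0 Krt9 null libraries, against 8, 8, 8 and 4 counts in P0 WT libraries (log2 fold change -2.86 ± 1.17 SE, edgeR adjusted p = 0.831). Hist1h2bf had 0 counts in both P0 Krt9 null libraries, against 13, 0, 7 and 0 counts in P0 WT libraries, and no fold is given.

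Hist1h1c counted 45.6 and 69.1 CPM in P0 Krt9 null paws, against 88.1, 99.999, 91.5 and 66.6 CPM in P0 WT paws. Of the 4 WT libraries 3 lay above both Krt9 null libraries, and replicate 4 lay between them. The log2 fold change was -0.56 ± 0.44 SE (edgeR adjusted p = 0.871). Hist1h2bc counted 21.6 and 39.0 CPM in Krt9 null paws, against 25.5, 27.9, 29.3 and 19.0 CPM in WT paws (0.25 ± 0.23 SE), and Hist1h4i 2.98 and 6.10 CPM, against 3.00, 2.97, 5.50 and 3.52 CPM (0.24 ± 0.32 SE). In both genes Krt9 null replicate 2 was the highest of the 6 libraries and replicate 1 lay within the WT range. None of the 39 DNA replication genes was called on P0 (median 0.21), and 0 of 25 genes of histone mRNA processing (0.09).

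**Figure D5:**
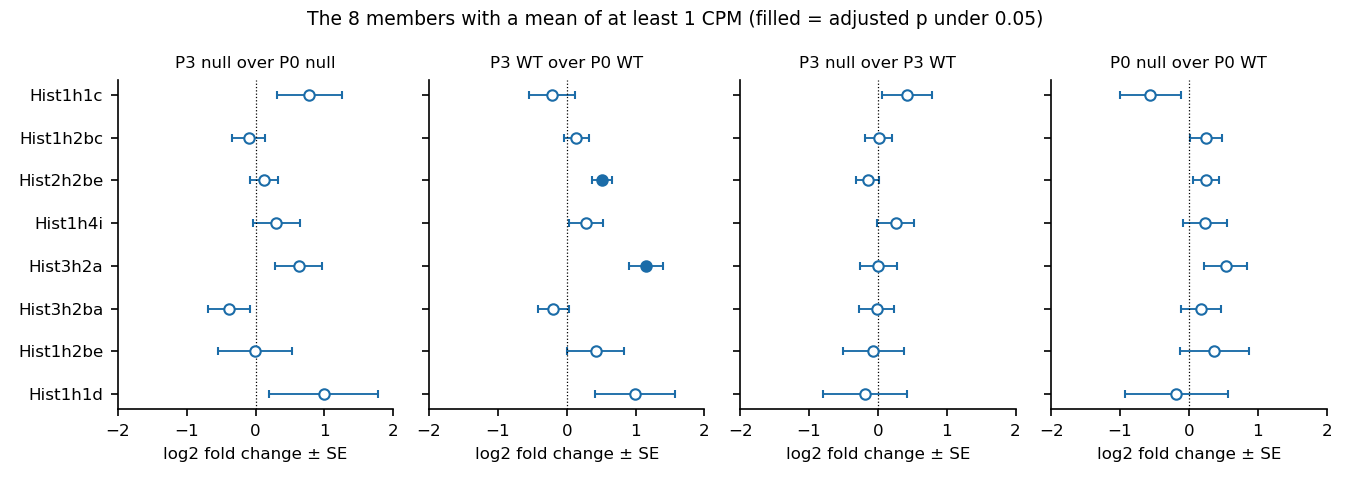
Fitted log2 fold changes with standard errors of the 8 members that average 1 CPM or more, in 4 comparisons; filled points have an adjusted p under 0.05. Hist2h2be (0.51) and Hist3h2a (1.15) are filled in P3 WT over P0 WT, and no point is filled in either comparison of genotype.

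The change over days was compared between the genotypes as an interaction, the day change of Krt9 null paws less that of WT paws. No member and 0% of all genes were called, 1 member (3.03%) had an unadjusted p under 0.05 in edgeR, against 7.6% of all genes, and DESeq2 and limma voom called none. The median over the members was -0.24 on the log2 scale and -0.02 over all genes. Hist3h2a had an interaction of -0.53 ± 0.41 SE (edgeR adjusted p = 0.814), Hist2h3c2 -0.32 ± 0.85 SE (adjusted p = 0.969) and Hist2h2be -0.39 ± 0.25 SE (adjusted p = 0.758). Hist2h4 had -2.24 ± 1.07 SE (edgeR adjusted p = 0.664). For Hist1h1c it was 0.99 ± 0.57 SE (edgeR adjusted p = 0.723), the largest among the 8 highest members. The 39 DNA replication genes had a median interaction of -0.34, with none called.

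The values of Hist1h1c, the most counted member, are given here by column block. On P3 the block B libraries counted 86.1 and 165.6 CPM in Krt9 null and 81.0 and 130.2 CPM in WT paws, against 51.7 CPM in Krt9 null and 49.4 to 63.0 CPM in WT paws of block A. On P0 the order held in Krt9 null paws, with 69.1 CPM in block B and 45.6 CPM in block A, but turned in WT paws, where the block B library, replicate 4, had 66.6 CPM and the 3 of block A had 88.1 to 99.999 CPM. With the block as a term, Hist1h1c was 0.70 higher in block B on the log2 scale (edgeR adjusted p = 0.0728), and the related Hist1h1d 1.23 higher (adjusted p = 0.0364), the 1 called of the 33 members (3.03%, against 23.2% of all genes). Of the 33 members 69.7% had a positive block term, against 52.3% of all genes.

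Within block A alone, with 3 libraries of each day, Hist1h1c fell in P3 WT against P0 WT paws (log2 fold change -0.68, edgeR adjusted p = 0.000156). That fit has 3 residual degrees of freedom, and its P3 WT libraries include the males that share a litter number. In the main fit of all libraries the change was -0.21 and not called. The comparisons that follow have an arm of 1 library within their block and are given as log2 values with no test. For block A they were -0.97 for P0 Krt9 null over P0 WT and 0.03 for P3 over P0 in Krt9 null paws. For block B they were 0.07 for P0 Krt9 null over P0 WT, 0.39 for P3 over P0 in Krt9 null paws and 0.23 for P3 WT over P0 WT.

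The library whose sex label its own counts did not match, P0 WT replicate 4, is the 1 P0 WT library of block B. Leaving that library out of a fit that holds the block as a term, Hist1h1c was lower in P0 Krt9 null than in P0 WT paws (-1.18, edgeR adjusted p = 0.0459), lower in P3 WT than in P0 WT paws (-0.73, edgeR adjusted p = 0.0293), and had an interaction of 1.34 (edgeR adjusted p = 0.0473). In the same fit of all libraries, the same values were -0.84, -0.44 and 1.09 and none was called. Without the filter on low counts, in a fit of all libraries with no block term, Hist1h1c was called for the days in Krt9 null paws (0.78, edgeR adjusted p = 0.0029). The same fit called it for the interaction (0.96, edgeR adjusted p = 0.00601). Whether Hist1h1c was called thus depended on that library, on the block and on the filter.

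Summed keratinocyte markers differed between the same libraries. The keratinocyte markers summed to 48245, 23005 and 43336 CPM in P3 Krt9 null and to 27853, 19929, 25274, 20504 and 26498 CPM in P3 WT paws. They summed to 26629 and 16205 CPM in P0 Krt9 null and to 45729, 37146, 43089 and 20836 CPM in P0 WT paws. In P3 Krt9 null paws the order of the libraries by this sum was that of Hist1h1c, and in P0 Krt9 null paws the order was the opposite. In P0 WT paws replicate 4 was lowest in both, and the other 3 ran in the opposite order. In P3 WT paws replicates 1 and 5 were the highest in both, and the order of the other 3 differed. None of the 7 markers was called between genotypes on either day, and 2 fell in P3 WT against P0 WT. The part of block and of keratinocyte content in the Hist1h1c values was not tested.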

How the data were processed

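Whole paws of 14 mice were profiled. The deposited values are raw read counts per gene, per the column values as deposited by the authors, and for their making STAR 2.7.10a and featureCounts on GRCm39 are listed, with edgeR and limma, per the submitters' processing notes. Filters, strand setting and treatment of multiply matching reads are not stated there. Symbols, lengths, stem-loops and overlaps came from GENCODE M21 on GRCm38, so no coordinates are given, and 52073 of 56691 IDs had a symbol. Totals per library were 28947715 to 41004173 counts, and intervals and floors cover counting error alone.

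Genes were kept by filterByExpr (21619), scaled by TMM and fitted with the quasi-likelihood test of edgeR 4.0.16 (R 4.3.3, robust, 4 groups plus labelled sex, 9 residual degrees of freedom), with Benjamini-Hochberg adjustment over all genes and a threshold of 0.05. DESeq2 1.42.0 and limma 3.58.1 voom were alternatives. The fit was tested on simulated data. Tables and figures used Python 3.11.15, pandas 2.3.3, NumPy 2.4.6 and matplotlib 3.10.9. CPM per kb divides the mean TMM-scaled CPM by exon length.

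Members and gene lists were chosen with earlier results of these data known. Named by rule were the 3 highest members of each type, called members, testis members, those with the smallest p in a comparison, Krt9, and up to 3 called genes of each list. Named after their values were seen were Hist1h1a, Hist1h1b, Hist1h2ab, Hist1h2ag, Hist1h2bg, Hist1h2bj, Hist1h2bp, Hist1h4d, Hist1h4k, the members with 0 counts, the histone variants, Trim17, Xist, Ddx3y and the RNAs without a tail. Litter numbers were checked as pairs on values less their group mean. The null and WT mice of P0 litter 1 gave r = 0.132, the 2 P3 WT males of litter 2 r = -0.284, and pairs across days -0.07 to 0.186. Subtracting the mean of a shared group pulls r below 0, so -0.284 cannot show that these males did not resemble each other. Litter as a random block within a day had an estimated correlation of 0.555, from few pairs. The main fit does not pair mice by litter number, and whether litter mates resemble each other was not settled.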

Additional observations from a re-analysis of the deposited data

Results flagged for a closer look

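In 4 of 46 groups of values checked, 1 library stood far from the others of its group by Dixon's test, and chance gives about 1 such group in 20. In P3 WT replicate 5, Hist2h2be stood at 10.6 CPM, against 7.34 to 7.78 CPM in the other 4 P3 WT libraries. The same library had 6.02 CPM of Hist1h4i, against 3.93 to 4.48 CPM in the others. Hist1h2bf stood at 0.12 CPM in P3 WT replicate 2, which is 5 counts, against 0 to 0.0332 CPM in the others. The summed H3 genes stood at 1.85 CPM in P0 WT replicate 1, against 2.51 to 2.54 CPM in the other 3 P0 WT libraries. Without P3 WT replicate 5 the rise of Hist2h2be over the days in WT had an edgeR adjusted p of 0.0982.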

How the results depend on the processing

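Of the recomputed values, 803 kept their side of the threshold or stayed within the spread, 41 moved, 20 lost and 8 gained a call, and 6 changed sign. For the days in WT, DESeq2 called 5 members, and the litter number as replicate block, which pairs few mice, called 0 with a median log2 fold change of 0.65. Under that block the median was 0.041 for the days in Krt9 null paws, -0.35 for genotype on P3 and -0.59 for the interaction. Litter as a random block within a day called 3 members for the days in WT, as without it. With no filter on low counts, 1 member (Hist1h1c) was called for the days in Krt9 null paws and 1 for the interaction. Column block A alone gave medians of -0.42 for genotype on P0, -0.38 for genotype on P3 and 0.058 for the interaction. Column block B alone called 3 members for the days in Krt9 null paws, 1 for genotype on P0 and 1 for the interaction. Such calls within a block rest on arms of 1 library, assumed to vary like the other groups, with 3 residual degrees of freedom in block A and 1 in block B, and are not read as tests. The column block as a term without P0 WT replicate 4 called 1 for genotype on P0 and 1 for the interaction, whose median was 0.060. The sign of Hist2h4 turned for the interaction in block A alone (0.099). That of Hist1h1c turned for the days in WT in block B alone (0.23) and under the litter block (0.21), for genotype on P0 in block B alone (0.067), and for genotype on P3 in block A alone (-0.26) and without P3 Krt9 null replicate 1 (-0.17). The causes were not tested. Leaving out single libraries gave 1 to 3 called members for the days in WT. Apart from DESeq2, the share of all genes called in these fits is not given, so the counts of members are not read as high or low. The median ran from 0.26 to 0.48 for the days in WT, from -0.067 to 0.87 for the days in Krt9 null paws, from -0.45 to 0.31 for genotype on P0, from -0.18 to 0.14 for genotype on P3 and from -0.36 to 0.33 for the interaction. As log2 ratios of group means in Krt9 null paws over the days, the sums ran from 0.27 to 1.16 for H1, 0.33 to 0.71 for H2a, -0.36 to 0.38 for H2b, -0.34 to 0.40 for H3 and -0.0092 to 0.73 for H4. For genotype on P0 they ran from -0.18 to 0.56 for H2b, -0.34 to 0.41 for H3 and -0.17 to 0.56 for H4, and for genotype on P3 from -0.15 to 0.72 for H1 and -0.16 to 0.22 for H2a. The fit of only the groups compared gives no interaction and was not run for it. Depth limits most members: 37 of 70 were too low to test.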
